A study of Mus musculus with 32 samples.

Results

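The integrin receptors and the cytoplasmic proteins that couple them to the cytoskeleton are represented here by 10 genes: the β subunits *Itgb5*, *Itgb1* and *Itgb3*, the α subunits *Itgav*, *Itga4*, *Itga6* and *Itga9*, and the adaptors *Parvb*, *Parvg* and *Fermt3*. They are a list of symbols, matched by Ensembl gene identifier in each of the 3 count tables of the study, which hold between 74016 and 74021 genes. All 10 were found in each table, and all 10 passed the filter on low counts there. The list was chosen by levels and fold changes seen in these libraries, in a contrast that is not recorded, and *Itgb5* and *Parvb* head it, so the levels and fold changes of those 2 genes are given as a description, without p-values. Counts of called genes among the 10, which include these 2, are likewise a description and not evidence about the list.

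Integrins are heterodimers of an α and a β subunit that bind extracellular matrix proteins or counter-receptors on other cells. Talin and a kindlin bind the β tail to activate the receptor, and the parvins, in a complex with integrin-linked kinase and PINCH, connect it to actin. In microglia, the resident macrophages of the central nervous system, integrins take part in adhesion, process movement, activation of latent TGF-β and uptake of debris.

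RNA-seq of 32 libraries was used. All SOD1G93A mice carried the transgene B6.Cg-Tg(SOD1*G93A)1Gur/J, a human mutant SOD1 that causes motor neuron disease in mice and is not confined to microglia, and the LAG-3-/- mice carried the constitutive allele B6.129S6(Cg)-Lag3tm1Doi/J, which removes the inhibitory receptor LAG-3 from every cell that makes it. In the first experiment CD11b+/CD45int microglia of the lumbar cord were sorted by LAG-3 from SOD1G93A mice at postnatal day 140 (P140) into a LAG-3-low and a LAG-3-high fraction, here also called low and high (5 libraries each), and compared with microglia of non-transgenic WT mice (4 libraries), none of them labelled as carrying the *Lag3* deletion; the age of the WT mice is not given in the sources used here. In the second, CD11b+/CD45int microglia came from SOD1G93A mice with both *Lag3* copies (LAG-3+/+) or neither (LAG-3-/-) at P120, an early symptomatic stage, and at P140, a late symptomatic stage (3 libraries per group). The third was whole lumbar cord of the same genotypes at P140 (3 libraries each). The labels do not say whether each library is a separate animal, so p-values measure the spread between these libraries.

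Totals ranged from 9403286 to 49512341 estimated counts per library. *Lag3*, on chromosome 6 in GRCm39, was at 53.4 to 63.0 CPM (counts scaled to one common library total) in P120 LAG-3+/+ microglia and at 0.163 to 0.462 CPM in P120 LAG-3-/- microglia, at 24.5 to 28.1 against 0.0239 to 0.336 CPM at P140, and at 43.4 to 74.5 against 5.504 to 5.72 CPM in cord. It was at 0.508 to 9.995 CPM in WT microglia, with 34.8 to 57.8 CPM in the low and 146 to 195 CPM in the high fraction. Every microglia library held the 9 microglia markers found, with a summed level of 16390 CPM or more. Neutrophil genes, by contrast, set libraries apart: 10 neutrophil markers summed to 5972 to 70510 CPM in WT and 22830 to 66380 CPM in LAG-3-low but to 3.48 to 9.67 CPM in LAG-3-high microglia, and to 1743 to 2576 CPM in P120 LAG-3+/+ but to 2.68 to 6.58 CPM in P120 LAG-3-/- microglia. At P140 they spanned 3.84 to 3482 CPM in LAG-3+/+ and 4.03 to 4616 CPM in LAG-3-/- microglia. In any microglia library, markers of neurons and macroglia summed to at most 194 CPM, of lymphocytes to 92.3 CPM, of platelets to 137 CPM, of endothelium and pericytes to 126 CPM and of border macrophages and monocytes to 636 CPM.

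Per kilobase of longest transcript, *Itgb5* was the most abundant of the 10 transcripts in P120 SOD1G93A/LAG-3+/+ microglia, at 364 ± 142 CPM per kb (SD, n = 3). Next came *Itgb1*, the partner of most α subunits, at 85.6 ± 6.99 CPM per kb and *Fermt3*, which encodes the haematopoietic kindlin-3, at 83.6 ± 7.34 CPM per kb, values closer to each other than their SDs. *Itga6*, *Parvb* and *Parvg* lay between 33.5 and 41.2 CPM per kb, *Itgav* at 19.3 ± 2.27 and *Itgb3* at 7.18 ± 2.58 CPM per kb. *Itga9* at 2.55 ± 0.360 and *Itga4* at 0.816 ± 0.623 CPM per kb were the scarcest. In P140 LAG-3+/+ cord the order was headed by *Itgb5* at 48.8 ± 4.34 CPM per kb, *Itgb1* at 30.0 ± 1.56 CPM per kb and *Itgav* at 28.4 ± 2.03 CPM per kb, the last 2 within 1 SD of each other. *Fermt3* was at 3.62 ± 0.511 CPM per kb in that cord.

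**Figure D1:**
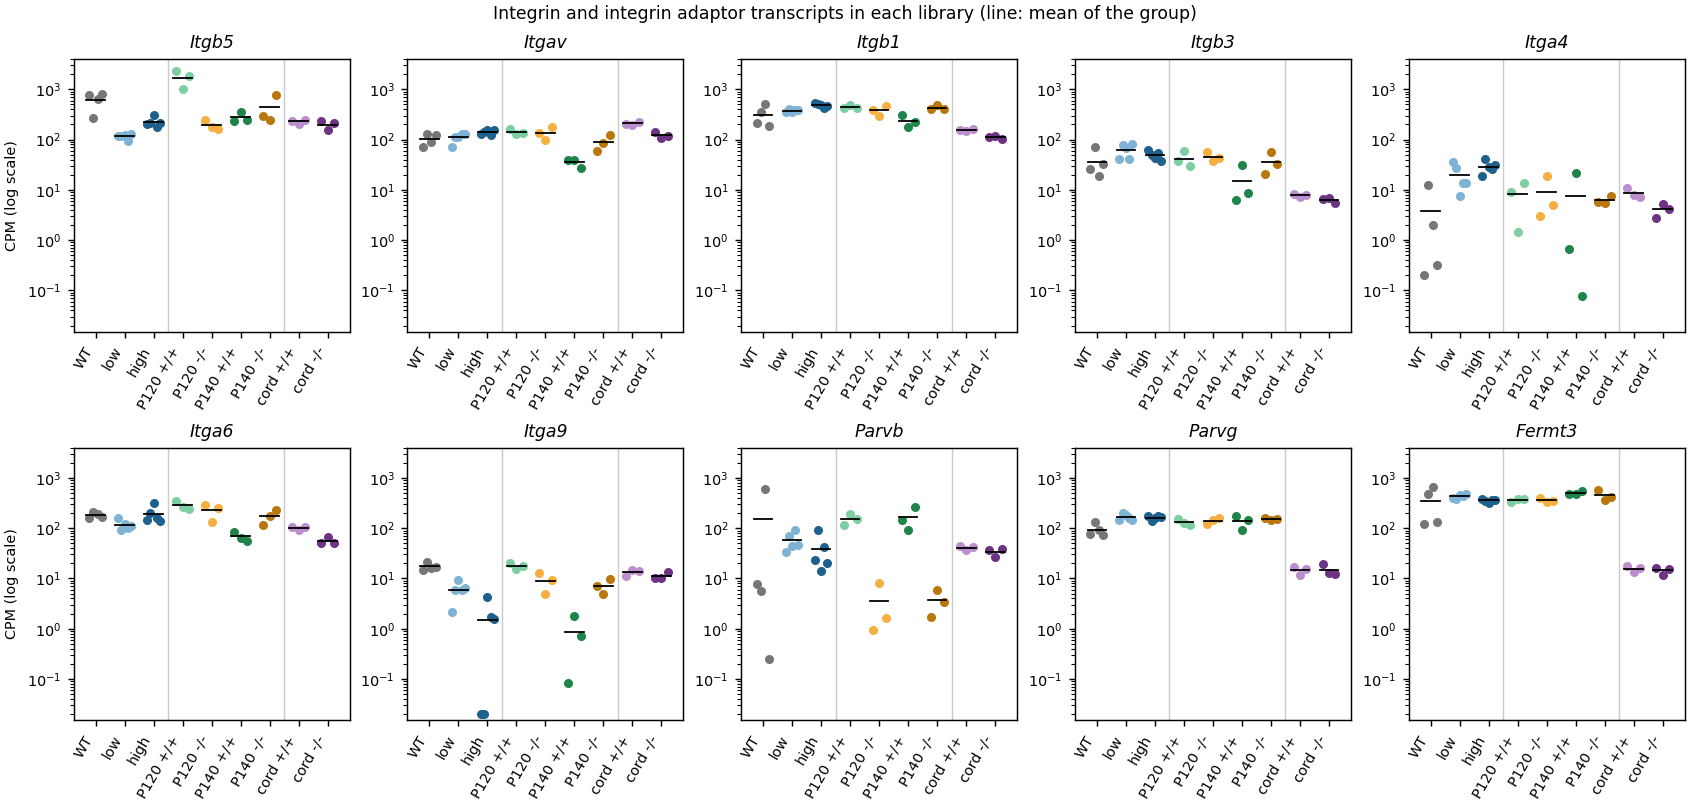
CPM (log scale) of each of the 10 genes in all 32 libraries, 1 point per library and a line at the group mean, for WT microglia and both LAG-3 fractions, for P120 and P140 SOD1G93A microglia and for P140 cord, with +/+ and -/- giving the LAG-3 genotype; 2 LAG-3-high libraries listed at 0 for *Itga9* are drawn at the lower edge. *Itgb5* is highest at P120 in LAG-3+/+ microglia, *Parvb* is below 8.1 CPM in the 6 LAG-3-/- microglia libraries, and *Parvg* is between 93.8 and 172 CPM in all 12 libraries of the second experiment.

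*Itgb5* (chr16:33649988-33771137, plus strand, GRCm39) encodes the β5 subunit, which pairs with αv to bind vitronectin, and counts among the transcripts typical of homeostatic microglia. In P120 SOD1G93A/LAG-3+/+ microglia it was at 2336, 1002 and 1818 CPM, and in P120 SOD1G93A/LAG-3-/- microglia at 245, 177 and 162 CPM. At P140 it was at 235, 359 and 251 CPM in LAG-3+/+ and at 295, 243 and 772 CPM in LAG-3-/- microglia. The P120 LAG-3+/+ libraries thus stood above all 9 others of this experiment, and the third P140 LAG-3-/- library stood above the other 2 of its group. The genotypes did not overlap at P120 and overlapped at P140.

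Between P120 and P140, *Itgb5* fell by 2.61 ± 0.455 (log2 fold change ± SE, edgeR) in LAG-3+/+ microglia and was 1.17 ± 0.435 higher in LAG-3-/- microglia. LAG-3-/- microglia were at a log2 fold change of -3.14 ± 0.466 from LAG-3+/+ at P120 and of 0.63 ± 0.431 at P140, so the 2 genotype differences were 3.78 ± 0.627 apart. Without the third P140 LAG-3-/- library the P140 difference was -0.06 instead of 0.63. That library had the highest neutrophil marker sum of its group, 4616 CPM, and at P120 the sums also separated the genotypes; their part in the *Itgb5* values was not tested. In bulk libraries such as these, fewer cells of a type and less RNA per cell cannot be told apart.

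In the sorted microglia *Itgb5* was at 769, 266, 630 and 793 CPM in WT, at 118, 118, 124, 95.3 and 128 CPM in LAG-3-low and at 207, 211, 311, 180 and 217 CPM in LAG-3-high libraries. Every LAG-3-low library lay below every other library, and the LAG-3-high and WT groups overlapped at a single WT library, replicate 2. The log2 fold changes were -2.40 ± 0.273 for LAG-3-low against WT, -1.45 ± 0.268 for LAG-3-high against WT and 0.95 ± 0.254 for the high against the low fraction. Neutrophil markers were high in the LAG-3-low group and near 0 in the LAG-3-high group, and their part in the last difference was not tested. In whole cord at P140 *Itgb5* was at 233, 209 and 250 CPM in LAG-3+/+ and at 235, 154 and 210 CPM in LAG-3-/- mice, groups that overlapped, with a log2 fold change of -0.21 ± 0.155.

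*Parvb* (chr15:84116232-84199889, plus strand) encodes β-parvin, which binds integrin-linked kinase and α-actinin. It was at 117, 189 and 154 CPM in P120 LAG-3+/+ microglia and at 0.954, 8.08 and 1.66 CPM in P120 LAG-3-/- microglia. At P140 it was at 146, 92.98 and 260 CPM in LAG-3+/+ and at 1.74, 5.87 and 3.46 CPM in LAG-3-/- microglia. All 6 LAG-3-/- libraries therefore lay below all 6 LAG-3+/+ libraries, by more than 10-fold. The log2 fold change between genotypes was -5.44 ± 0.831 at P120 and -5.48 ± 0.832 at P140, and these differed by -0.04 ± 0.987. Between the stages it was 0.12 ± 0.683 in LAG-3+/+ and 0.07 ± 0.708 in LAG-3-/- microglia.

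Neutrophil marker sums separated the genotypes at P120 as *Parvb* did, at 1743 to 2576 CPM in LAG-3+/+ and 2.68 to 6.58 CPM in LAG-3-/- microglia. At P140 the sums overlapped, at 3482, 668 and 3.84 CPM in the LAG-3+/+ and 4.03, 847 and 4616 CPM in the LAG-3-/- libraries, in the order of the *Parvb* values above, while the *Parvb* levels did not overlap. Their part in the *Parvb* difference was not tested. In whole cord the genotypes overlapped, at 44.0, 36.5 and 43.0 CPM in LAG-3+/+ and 37.3, 27.3 and 38.2 CPM in LAG-3-/- mice, a log2 fold change of -0.27 ± 0.139. None of the 10 genes lies on chromosome 6, where *Lag3* is, and the part of strain background in the *Parvb* values was not tested.

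Among sorted microglia *Parvb* was at 33.8, 70.1, 45.2, 92.1 and 46.3 CPM in LAG-3-low and at 22.9, 91.8, 13.8, 42.5 and 20.4 CPM in LAG-3-high libraries, 2 groups that overlapped. The WT libraries were at 7.70, 5.58, 598 and 0.254 CPM. Replicate 3 was therefore above all other 31 libraries, while the remaining WT libraries were below every LAG-3-low and LAG-3-high library. The log2 fold change against WT was -1.41 ± 1.28 for LAG-3-low and -1.998 ± 1.295 for LAG-3-high, and without WT replicate 3 it was 3.68 and 3.10, so its direction rested on that library. WT replicate 3 also had the highest sums of its group for border macrophage and monocyte markers (636 CPM, against 44.9 to 142 CPM) and for platelet markers (137 CPM, against 16.6 to 98.9 CPM), whose part in its *Parvb* level was not tested.

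The gene next to *Parvb* on the same strand is its paralogue *Parvg* (chr15:84208227-84228198), which begins 8337 bases after the end of *Parvb* and encodes γ-parvin, the parvin of haematopoietic cells. *Parvg* was at 153, 128 and 114 CPM in P120 LAG-3+/+ and 122, 143 and 159 CPM in P120 LAG-3-/- microglia. At P140 it was at 172, 93.8 and 144 CPM in LAG-3+/+ and at 159, 145 and 156 CPM in LAG-3-/- microglia. The genotypes overlapped at both ages, with log2 fold changes of 0.10 ± 0.225 and 0.16 ± 0.225 (adjusted p = 1 and 0.717, edgeR quasi-likelihood test, Benjamini-Hochberg adjustment).

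*Samm50*, which encodes a mitochondrial outer-membrane assembly protein and starts 39.8 kb before *Parvb*, was examined after these values were seen. Its log2 fold change between genotypes was -0.19 ± 0.297 at P120 and -0.58 ± 0.297 at P140 (adjusted p = 1 and 0.261, edgeR). *Sult4a1*, further upstream, had standard errors of 2.55 and 2.09, too wide to place it. Of the non-coding genes tested there, *Gm62731*, also upstream and singled out after its values were seen, was called lower in LAG-3-/- microglia at P140 (adjusted p = 0.0625, edgeR). It had 26, 39 and 13 counts in the P140 LAG-3+/+ and 0 in each P140 LAG-3-/- library, against 0 in each P120 LAG-3+/+ library and 0, 3 and 3 counts in the P120 LAG-3-/- libraries. In cord it was higher in LAG-3-/- mice, with 40, 76 and 65 counts against 14, 15 and 10 (2.45 ± 0.304, adjusted p = 0.000331, edgeR). *Gm33432*, *Gm56731* and *Gm62737* had adjusted p from 0.629 to 1 between genotypes in microglia (edgeR).

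**Figure D2:**
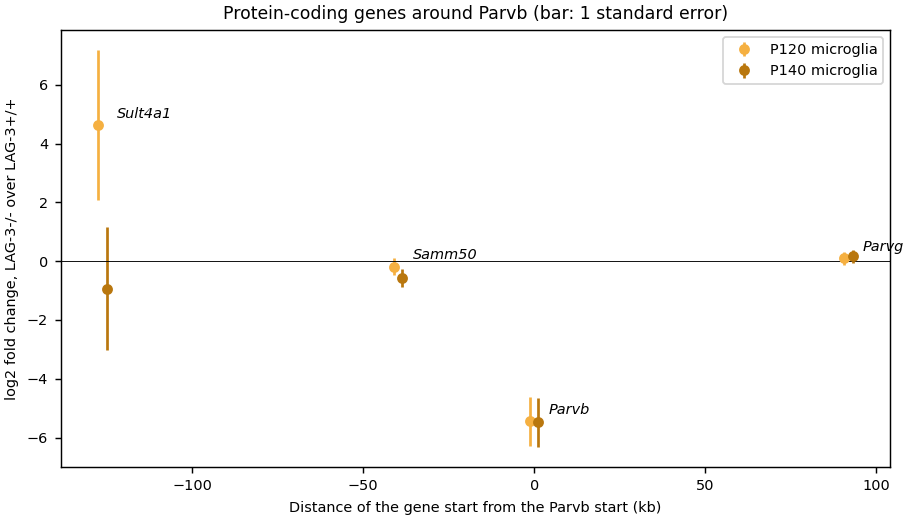
log2 fold change between LAG-3-/- and LAG-3+/+ microglia (vertical axis, edgeR) of the 4 tested protein-coding genes within 200 kb of the *Parvb* start, against the distance of their start from it in kb; points are P120 and P140, drawn slightly apart, and bars are 1 standard error. *Parvb* is at -5.44 and -5.48, while *Parvg* is at 0.10 and 0.16 and *Samm50* at -0.19 and -0.58. Non-coding genes are not drawn.

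From P120 to P140 in SOD1G93A/LAG-3+/+ microglia, *Itgav*, *Itgb1*, *Itga6* and *Itga9* fell among the other integrin subunits. Called genes (adjusted p under 0.1, without a minimum fold in this experiment) numbered 5 of the 10, all lower, beside 27.4% of the 18669 genes tested (15.5% lower): *Itgb5*, *Itgav*, *Itgb1*, *Itga6* and *Itga9*. The median log2 fold change of the 10 was -1.17, and that of all genes tested was -0.22. Marker sums moved with age in these libraries without overlap, from 9.78 to 18.8 CPM at P120 to 104 to 146 CPM at P140 for border macrophages and monocytes, from 20.2 to 23.5 to 29.9 to 49.2 CPM for lymphocytes and from 26870 to 30460 to 37070 to 44620 CPM for microglia. Their part in the integrin values was not tested.

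*Itgav* (chr2:83554403-83637260), the α partner of β5 and β3, was at 162, 129 and 138 CPM at P120 and at 39.8, 39.2 and 27.2 CPM at P140 in LAG-3+/+ microglia. It fell by 2.01 ± 0.308 on the log2 scale (adjusted p = 0.00535, edgeR). *Itga6* (chr2:71575960-71689757), a laminin receptor subunit, was at 349, 264 and 244 CPM at P120 and at 85.7, 63.9 and 55.9 CPM at P140. It fell by 2.06 ± 0.341 (adjusted p = 0.0057, edgeR), a change of the same size as that of *Itgav* within the standard errors. For neither gene did the ages overlap.

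*Itga9* (chr9:118435722-118730072), whose product binds tenascin-C and osteopontin with β1, was at 20.5, 15.4 and 18.1 CPM at P120 and at 0.0830, 1.76 and 0.730 CPM at P140. It fell by 4.40 ± 0.864 (adjusted p = 0.00843, edgeR), from a low level to a few counts in 1 library. *Itgb1* (chr8:129411876-129460618) was at 416, 482 and 425 CPM at P120 and at 311, 180 and 223 CPM at P140 and fell by 0.89 ± 0.223 (adjusted p = 0.02, edgeR). The ages did not overlap for either.

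The remaining genes did not pass. *Itgb3* (chr11:104498826-104561302), the β subunit of the αv vitronectin and platelet fibrinogen receptors, was at 36.7, 58.6 and 29.9 CPM at P120 and at 6.44, 30.7 and 8.50 CPM at P140, with overlap at the second P140 library (log2 fold change -1.46 ± 0.580, adjusted p = 0.102, edgeR). Without that library it was -2.49 (adjusted p = 0.02, edgeR). With all libraries, *Itgb3* passed with DESeq2 (-1.32, adjusted p = 0.0737). In edgeR it passed without TMM, without a filter or with a replicate block (adjusted p = 0.0367, 0.0919 and 0.0491). In the other 4 of 8 alternative settings it did not pass, among them the length and GC correction (-0.48, adjusted p = 0.624, edgeR). *Itga4* (chr2:79085660-79163467), which binds VCAM-1, spanned 1.43 to 13.7 CPM at P120 and 0.0769 to 21.95 CPM at P140 and could not be placed (-0.11 ± 1.42, adjusted p = 0.97, edgeR). *Fermt3* (chr19:6974559-6996837, minus strand) was at 327, 379 and 386 CPM at P120 and at 479, 475 and 546 CPM at P140, without overlap (0.46 ± 0.190, adjusted p = 0.115, edgeR), and *Parvg* was at 0.06 ± 0.225 (adjusted p = 0.9, edgeR).

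The 5 lower genes are shown by the 250 bases before their RefSeq start (GRCm38.p6, which is not the build of the counts) where the table held one, 4 of 5 here and 8 of all 10 genes, with *Itga6* and *Itgb3* unmatched. Capitals mark GAGGAA or its complement TTCCTC, a purine-rich core of the kind bound by the myeloid ETS factor PU.1, searched on both strands. The window of *Itgav* held 2 and that of *Itgb1* held 1, whereas those of *Itgb5* and *Itga9* held 0; 23.3% of 32851 windows of the same length held at least 1. The E-box CACGTG, which is its own complement, was in none of the 4 and in 6.02% of all windows.
*Itgb5*, chr16:33829415-33829664, plus strand: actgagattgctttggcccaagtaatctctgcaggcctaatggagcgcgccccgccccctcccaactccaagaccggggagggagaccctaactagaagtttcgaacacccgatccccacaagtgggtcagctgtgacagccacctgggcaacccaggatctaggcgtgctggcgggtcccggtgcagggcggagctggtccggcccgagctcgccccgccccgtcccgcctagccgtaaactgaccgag
*Itgav*, chr2:83724147-83724396, plus strand: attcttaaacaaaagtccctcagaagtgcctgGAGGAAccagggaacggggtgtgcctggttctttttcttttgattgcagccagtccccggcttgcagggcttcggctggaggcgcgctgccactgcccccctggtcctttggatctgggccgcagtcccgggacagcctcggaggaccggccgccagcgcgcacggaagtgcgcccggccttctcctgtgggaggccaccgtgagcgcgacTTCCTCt
*Itgb1*, chr8:128685404-128685653, plus strand: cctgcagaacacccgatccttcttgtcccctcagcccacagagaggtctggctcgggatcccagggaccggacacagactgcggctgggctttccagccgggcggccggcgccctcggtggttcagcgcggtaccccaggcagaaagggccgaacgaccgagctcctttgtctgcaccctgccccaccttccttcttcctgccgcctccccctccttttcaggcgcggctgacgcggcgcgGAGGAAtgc
*Itga9*, chr9:118711442-118711691, plus strand: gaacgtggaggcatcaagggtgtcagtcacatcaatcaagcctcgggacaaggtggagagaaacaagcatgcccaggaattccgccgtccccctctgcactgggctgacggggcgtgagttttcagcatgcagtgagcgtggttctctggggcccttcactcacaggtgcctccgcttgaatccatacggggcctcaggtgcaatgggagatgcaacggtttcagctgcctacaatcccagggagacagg
These letters are a description of the windows and not evidence of binding.

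In SOD1G93A/LAG-3-/- microglia 0 of the 10 genes were called between P120 and P140 by edgeR, beside 0% of all 18669 genes tested. In edgeR 1 of the 10 had an unadjusted p under 0.05, beside 1658 of the 18669. DESeq2 called 0 of the 10, beside 2.41% of all genes. *Itgav* was at 136, 96.2 and 180 CPM at P120 and at 59.6, 85.3 and 122 CPM at P140 (-0.62 ± 0.298, adjusted p = 0.578, edgeR). *Itga6* was at 291, 135 and 257 CPM and then at 113, 176 and 234 CPM (-0.38 ± 0.328, adjusted p = 0.829, edgeR). Both sets overlapped between the ages. *Itga9* was at 12.7, 4.91 and 9.53 CPM and then at 7.10, 4.82 and 9.74 CPM (-0.33 ± 0.743, adjusted p = 0.966, edgeR), and *Itgb1* was at 391, 299 and 463 CPM and then at 403, 478 and 404 CPM (0.16 ± 0.221, adjusted p = 0.922, edgeR).

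Whether genotype changed the stage effect was tested by the interaction. edgeR called 1 of the 10 genes, *Itgb5*, beside 0.171% of all genes, and DESeq2 5 of the 10, beside 6.97% of all genes. Without replicate 1 of P140 LAG-3+/+ microglia 3 were called (1.94% of all genes), without replicate 1 of P140 LAG-3-/- microglia 5 (8.35%), and without any other single library 0. Nothing is read from these counts. For *Itgav* the interaction was 1.39 ± 0.422 (adjusted p = 0.224), for *Itga6* 1.68 ± 0.467 (adjusted p = 0.196), for *Itgb1* 1.04 ± 0.314 (adjusted p = 0.222) and for *Itga9* 4.08 ± 1.10 (adjusted p = 0.187, all edgeR). The different stage effects of the genotypes in these 4 genes were therefore not past the threshold in edgeR. DESeq2 called all 4, at adjusted p = 0.0775 (*Itgav*), 0.0351 (*Itga6*), 0.0733 (*Itgb1*) and 0.00632 (*Itga9*). The outcome thus depended on the method. The 2 stage effects share no libraries, but the interaction uses the same 12 libraries as the comparisons by age and genotype.

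**Figure D3:**
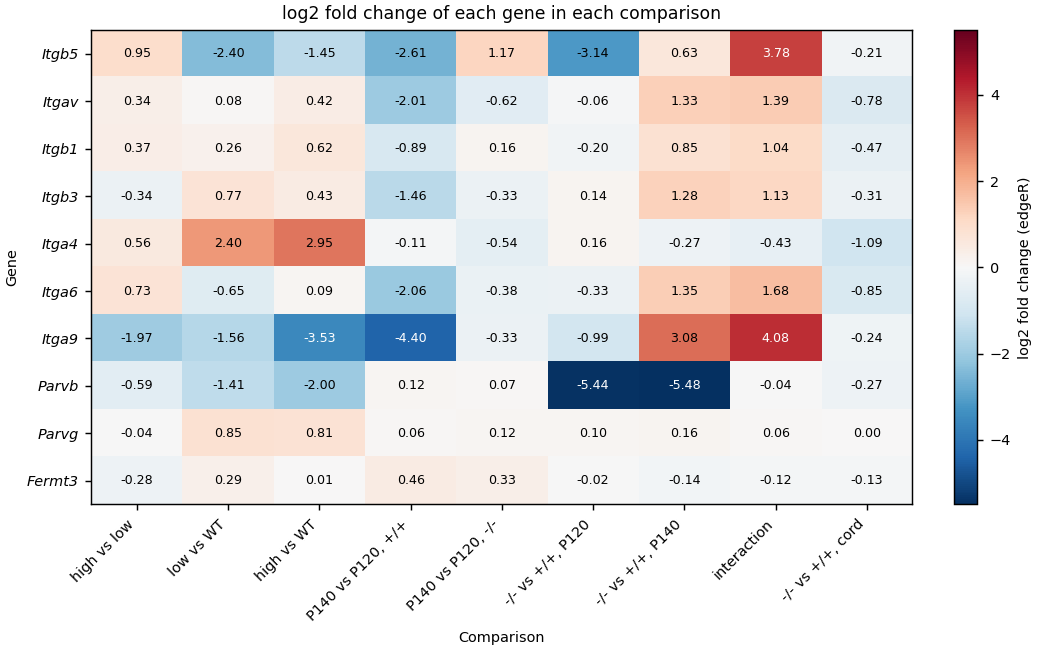
log2 fold change (edgeR, red higher and blue lower) of each gene (rows) in each of the 9 comparisons (columns), with the value printed in each cell; +/+ and -/- are LAG-3 genotypes, and the interaction is the P140 minus the P120 genotype difference. The P140 against P120 column of LAG-3+/+ microglia runs down to -4.40 for *Itga9*, and the *Parvb* row holds -5.44 and -5.48 in the 2 genotype columns of microglia.

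At P120 the largest genotype differences among the 10 were those of *Itgb5* and *Parvb*. edgeR called 0 of the 10 genes, beside 0.0107% of all genes. An unadjusted p under 0.05 in edgeR was found for 2, beside 551 of 18669 genes tested. DESeq2 called 2 beside 0.718% of all genes, and without P120 LAG-3-/- replicate 2 edgeR called 1 beside 0.0148%. The other 8 genes had log2 fold changes from -0.99 ± 0.748 (*Itga9*) to 0.16 ± 1.42 (*Itga4*), each with an adjusted p of 1 in edgeR. *Itga9* was 20.5, 15.4 and 18.1 CPM in LAG-3+/+ and 12.7, 4.91 and 9.53 CPM in LAG-3-/- microglia, the only one of the 8 whose groups did not overlap. The share of all genes without overlap was not counted in this or any other comparison, so nothing is read from the lack of overlap.

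At P140 *Itgav*, *Itgb1*, *Itga6* and *Itga9* were higher in LAG-3-/- than in LAG-3+/+ microglia and *Parvb* was lower, 5 of the 10 genes called beside 10.2% of all genes (7.22% higher and 3% lower). *Itgav* was 1.33 ± 0.303 higher (adjusted p = 0.0411), *Itga6* 1.35 ± 0.334 (adjusted p = 0.0515), *Itga9* 3.08 ± 0.818 (adjusted p = 0.06) and *Itgb1* 0.85 ± 0.223 (adjusted p = 0.0593, all edgeR). For none of these 4 did the genotypes overlap at P140. The comparison shares its P140 LAG-3+/+ libraries with the stage comparison above, so the fall there and the rise here are not separate observations. *Itgb3*, at 20.5, 57.3 and 32.3 CPM in LAG-3-/- microglia, overlapped with LAG-3+/+ (1.28 ± 0.578, adjusted p = 0.205, edgeR).

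These 4 calls were sensitive to single libraries. Without LAG-3+/+ replicate 3, LAG-3-/- replicate 2 or LAG-3-/- replicate 3 none of these 4 was called, beside 3.76%, 0.47% and 0.745% of all genes. The log2 fold changes of *Itgav* were then 1.17, 1.31 and 1.04 (adjusted p = 0.115, 0.151 and 0.158, edgeR). Those of *Itgb1* were 0.80, 0.72 and 0.89 (0.153, 0.235 and 0.157), those of *Itga6* 1.23, 1.29 and 1.08 (0.138, 0.175 and 0.187) and those of *Itga9* 2.99, 3.26 and 2.81 (0.147, 0.162 and 0.187). Without LAG-3+/+ replicate 2, *Itgb1* was at 0.68 and *Itga6* at 1.30 (adjusted p = 0.167 and 0.141), and *Itgb3* was at 2.30 (adjusted p = 0.0631, edgeR). All kept their direction.

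Transcript length moved with these stage and genotype differences. Genes with a longest transcript of 5 kb or more had a median log2 fold change of -0.91 from P120 to P140 in LAG-3+/+ microglia and of 0.67 between the genotypes at P140, against 0.02 and 0 for genes of 2 to 5 kb. The P140 LAG-3+/+ libraries also had 18896 to 20489 genes detected, against 24136 to 24942 in the P120 LAG-3+/+ libraries. *Itgav*, *Itgb1*, *Itgb3*, *Itga4*, *Itga6* and *Itga9* are longer than 5 kb (5.149 to 9.951 kb), and *Itgb5*, *Parvb*, *Parvg* and *Fermt3* are shorter (3.862 to 4.727 kb). In finer bins the shift was also present below 5 kb. Bins with median lengths of 4.49 and 4.88 kb were at -0.391 and -0.653 from P120 to P140 in LAG-3+/+ microglia. Between the genotypes at P140 they were at 0.338 and 0.499. *Itgb5*, at 4.727 kb, is of that length.

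With a correction for length and GC content in each library, the fall from P120 to P140 in LAG-3+/+ microglia was 0.97 for *Itgav*, 1.03 for *Itga6* and 3.26 for *Itga9* on the log2 scale and stayed past the threshold, and *Itgb1* was at -0.21 (adjusted p = 0.519, edgeR). *Itgb5* was then at -1.91. At P140 the genotype differences were 0.54 for *Itgav*, 0.57 for *Itga6*, 0.33 for *Itgb1* and 2.26 for *Itga9* (adjusted p = 0.241, 0.239, 0.352 and 0.143, edgeR). None of them was called in that fit, which called 8.45% of all genes.

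**Figure D4:**
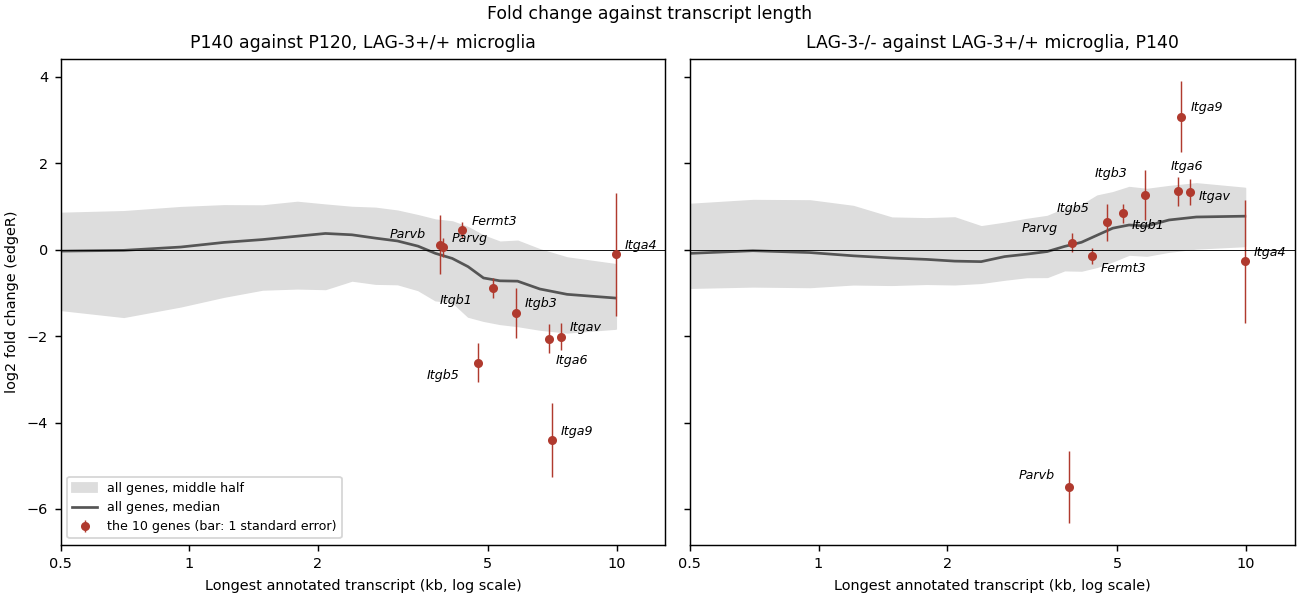
log2 fold change (edgeR) against the longest annotated transcript in kb (log scale) for P140 against P120 in LAG-3+/+ microglia (left) and LAG-3-/- against LAG-3+/+ microglia at P140 (right); red points are the 10 genes with bars of 1 standard error, the grey line is the median of all tested genes in 20 bins of length and the band their middle 50%. All genes of 5 kb or more have medians of -0.91 and 0.67, the direction in which *Itgav*, *Itgb1*, *Itga6* and *Itga9* lie, while *Parvb* at 3.862 kb lies at -5.48 on the right.

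In the sorted microglia the contrast of LAG-3-high with LAG-3-low called 0 of the 10 genes by edgeR, beside 3.49% of 16508 genes tested (0.818% higher and 2.67% lower). The threshold for the sorts and for cord adds a log2 fold change beyond 1 in either direction to the adjusted p. DESeq2 called 0 of the 10, beside 5.98% of all genes. Without LAG-3-high replicate 4 edgeR called 1, beside 2.73% of all genes. An unadjusted p under 0.05 in edgeR was seen for 2 of the 10, among them *Itga6*, beside 1988 of the 16508 genes tested. *Itga6* was at 157, 90.7, 120, 100 and 112 CPM in LAG-3-low and at 143, 202, 319, 158 and 141 CPM in LAG-3-high libraries, with overlap at the first LAG-3-low library (0.73 ± 0.241, adjusted p = 0.15, edgeR). *Itgb1* was at 348 to 398 CPM, median 384 CPM, in LAG-3-low and at 423 to 541 CPM, median 491 CPM, in LAG-3-high libraries, without overlap (0.37 ± 0.226, adjusted p = 0.612, edgeR).

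*Itga9* was scarce in both fractions, at 2.12, 5.79, 9.34, 5.81 and 6.36 CPM in LAG-3-low and at 0, 0, 4.25, 1.70 and 1.55 CPM in LAG-3-high libraries (-1.97 ± 1.06, adjusted p = 0.529, edgeR). *Itgav*, *Itgb3*, *Itga4*, *Parvg* and *Fermt3* overlapped between the fractions, with log2 fold changes from -0.34 to 0.55 and adjusted p from 0.638 to 0.99 in edgeR.

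Against WT microglia 1 of the 10 genes was called in LAG-3-low (*Itgb5*, lower; of all genes, 21.9% called and 11% lower) and 3 in LAG-3-high microglia (*Itga4* higher, *Itgb5* and *Itga9* lower; of all genes, 27% called, 12.1% higher and 14.9% lower). *Itga9* was at 14.7, 21.4, 16.4 and 17.1 CPM in WT, above every SOD1G93A library of this table. It was lower by 3.53 ± 1.15 on the log2 scale in LAG-3-high (adjusted p = 0.0425) and by 1.56 ± 1.08 in LAG-3-low microglia (adjusted p = 0.348, both edgeR).

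*Itga4* was at 0.204, 12.6, 1.98 and 0.317 CPM in WT, at 36.3, 27.5, 7.50, 14 and 13.7 CPM in LAG-3-low and at 19.3, 40.8, 28.6, 26.0 and 30.7 CPM in LAG-3-high libraries. LAG-3-high did not overlap with WT (2.95 ± 0.989, adjusted p = 0.047), whereas LAG-3-low overlapped at WT replicate 2 (2.40 ± 0.964, adjusted p = 0.102, both edgeR). Without WT replicate 2 the LAG-3-low difference was 4.56 (adjusted p = 0.00207, edgeR). In that fit 4 of the 10 genes were called in LAG-3-low against WT, beside 33.2% of all genes. Without WT replicate 3 it was 2 of the 10, beside 25.8% of all genes. The neutrophil marker sum of WT replicate 2 was 36480 CPM, against 9240 CPM or less in WT replicates 1 and 3 and 70510 CPM in WT replicate 4; its part in these values was not tested.

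*Parvg* was higher than in WT by less than the minimum fold, at 75.6, 131, 91.6 and 74.4 CPM in WT against 144 to 202 CPM (median 163 CPM) in LAG-3-low and 138 to 175 CPM (median 164 CPM) in LAG-3-high libraries. The groups did not overlap (0.85 ± 0.204, adjusted p = 0.013, and 0.81 ± 0.204, adjusted p = 0.0131, edgeR), but with the length and GC correction the values were -0.001 and -0.16. *Fermt3* ranged from 121 to 674 CPM among the WT libraries alone, wider than in either SOD1G93A group (379 to 489 and 316 to 379 CPM). *Itgb1* in LAG-3-high and *Itga6* in LAG-3-low microglia passed the adjusted threshold without the minimum fold (0.62 ± 0.242, adjusted p = 0.0801, and -0.65 ± 0.253, adjusted p = 0.0929, edgeR). Both also did so with DESeq2 (adjusted p = 0.033 and 0.0866). Neither did without TMM (0.512 and 0.187) or with only the 2 groups compared (0.21 and 0.167, edgeR). With the length and GC correction they were at 0.085 and -1.298 (adjusted p = 0.725 and 0.00594, edgeR).

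In whole P140 cord 9 of the 10 log2 fold changes were below 0 in LAG-3-/- mice, with a median of -0.29 against 0 for all genes tested, and 1 gene was called beside 7.52% of 17702 genes (4.37% higher and 3.15% lower). That gene was *Itga4*, at 10.9, 8.09 and 7.33 CPM in LAG-3+/+ and 2.80, 5.17 and 4.25 CPM in LAG-3-/- cord (-1.09 ± 0.238, adjusted p = 0.0043, edgeR). It fell under the minimum fold without the first LAG-3+/+ or the first LAG-3-/- library (-0.91 and -0.90) and with the length and GC correction (-0.50, adjusted p = 0.127, edgeR).

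*Itgav*, *Itga6* and *Itgb1* were lower in LAG-3-/- cord by less than the minimum fold. *Itgav* was at 207, 196 and 226 CPM against 142, 109 and 116 CPM (-0.78 ± 0.126, adjusted p = 0.000971, edgeR). *Itga6* was at 106, 92.7 and 105 CPM against 51.8, 65.6 and 51.0 CPM (-0.85 ± 0.121, adjusted p = 0.00057, edgeR). *Itgb1* was at 154, 146 and 163 CPM against 115, 117 and 102 CPM (-0.47 ± 0.106, adjusted p = 0.00508, edgeR). Over the alternative settings they ranged from -0.915 to -0.351 (*Itgav*), -0.983 to -0.478 (*Itga6*) and -0.606 to -0.28 (*Itgb1*). In none of the 3 did the genotypes overlap, and the sign in cord was opposite to that in sorted microglia at P140. All 3 are longer than 5 kb, and genes of that length had medians of 0.67 in P140 microglia and -0.32 in cord. The difference between cord and microglia, and the part of length in it, was not tested.

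*Itgb3*, *Itga9*, *Parvg* and *Fermt3* were at -0.31 to 0.00 in cord, with adjusted p from 0.151 to 0.999 in edgeR. The 9 microglia markers summed to 1152 to 1451 CPM in LAG-3+/+ and 830.5 to 1133 CPM in LAG-3-/- cord, the 10 endothelial and pericyte markers to 305 to 350 against 253 to 277 CPM, and the 10 markers of border macrophages and monocytes to 55.2 to 67.5 against 30.7 to 40.8 CPM. Markers of neurons and macroglia were higher in LAG-3-/- cord, at 29690 to 32740 against 33340 to 44680 CPM, as were platelet markers at 3.94 to 4.77 against 6.76 to 12.9 CPM, while neutrophil and lymphocyte markers overlapped. Genes of 5 kb or more had a median of -0.32 in this comparison. None of these was tested as a part of the integrin differences.

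The other genes of the integrin pathway were counted from 3 lists, of 19 further subunits, 42 adaptors and signalling proteins and 35 ligands. From P120 to P140 in LAG-3+/+ microglia 8 of 67 tested were called higher and 28 lower, with a median of -0.94, beside 11.9% and 15.5% of all genes tested and their median of -0.22. *Ptk2b*, the focal adhesion kinase relative PYK2, fell by 2.89 ± 0.441 (adjusted p = 0.00535), *Itgam*, the αM chain of the CD11b sort marker, by 1.62 ± 0.251 (adjusted p = 0.00547) and *Tln2*, a talin, by 1.68 ± 0.295 (adjusted p = 0.00636, all edgeR). In LAG-3-/- microglia 0 of 67 were called by edgeR (0% of all genes) or DESeq2 (2.41%). In edgeR 5 of the 67 had an unadjusted p under 0.05, beside 1658 of 18669 genes tested. The interaction called 0 of 67 in edgeR, which called 0.171% of all genes, and 13 in DESeq2, which called 6.97%. In edgeR 21 of the 67 had an unadjusted p under 0.05, beside 2541 of 18669 genes tested.

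Between genotypes 0 of 67 pathway genes were called at P120 by edgeR (0.0107% of all genes) or DESeq2 (0.718%). In edgeR 1 of the 67 had an unadjusted p under 0.05, beside 551 of 18669 genes tested. At P140, 17 were higher and 1 lower in LAG-3-/- microglia, with a median of 1.03, beside 7.22% and 3% of all genes and their median of 0.14; *Itgam* was 1.46 ± 0.250 higher (adjusted p = 0.0217), *Ptk2b* 2.34 ± 0.432 (adjusted p = 0.0282) and *Adam9*, a membrane protease that binds integrins, 2.05 ± 0.406 (adjusted p = 0.0309, all edgeR). Of the 67, 6 were called without LAG-3+/+ replicate 2, 9 without LAG-3+/+ replicate 3, 28 without LAG-3-/- replicate 1, 0 without LAG-3-/- replicate 2 and 1 without LAG-3-/- replicate 3, where the shares of all genes were 3.22%, 3.76%, 20.2%, 0.47% and 0.745%. With the length and GC correction 9 were called, beside 8.45% of all genes.

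In the sorted microglia 63 were tested. The low fraction had 18 above and 2 below WT, beside 10.9% and 11% of all genes, and the high fraction had 16 above and 3 below WT, beside 12.1% and 14.9%. When high was set against low, 2 were above and 3 below, beside 0.818% and 2.67%. The medians of the 63 were 0.71, 0.36 and 0.06, against 0.04, -0.08 and -0.02 for all genes. *Spp1*, which encodes the integrin ligand osteopontin, had 57.6 ± 43.4 CPM in WT (SD, n = 4), 2938 ± 1257 CPM in the low and 22060 ± 1902 CPM in the high fraction (SD, n = 5 each), and its adjusted p was at most 0.00321 in each edgeR comparison. *Fn1*, encoding fibronectin, was 5.04 ± 0.740 and 5.43 ± 0.755 above WT in LAG-3-low and LAG-3-high (adjusted p = 0.000748 and 0.00025, edgeR). *Itgax*, the αX chain CD11c, was 7.94 ± 1.10 above WT in LAG-3-high (adjusted p = 0.00025, edgeR).

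*Flna*, the actin crosslinker filamin A, was 2.51 ± 0.326 above WT in the low fraction (adjusted p = 0.000328) and 1.55 ± 0.290 below that in the high fraction (adjusted p = 0.00857, both edgeR). *Actn1*, encoding α-actinin, was 3.90 ± 1.02 lower in the high than in the low fraction (adjusted p = 0.0551, edgeR). The neutrophil marker sums separate these same fractions, as given above. In each fit with 1 LAG-3-high library, or with LAG-3-low replicate 1, 2, 3 or 4, left out, 2 or 3 of the 63 were called in place of 5. The share of all genes called was 2.29% to 2.87% in those fits, in place of 3.49%.

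LAG-3-/- cord had 0 of 92 pathway genes above the threshold in the higher direction and 6 in the lower, beside 4.37% and 3.15% of all genes. *Itgb8*, the β8 subunit that with αv activates latent TGF-β, was 1.08 ± 0.122 lower (adjusted p = 0.000259), the adaptor *Fyb1* 1.21 ± 0.155 lower (adjusted p = 0.000369) and *Dab2* 1.04 ± 0.151 lower (adjusted p = 0.000618, all edgeR). The median of the 92 was -0.28, against 0 for all genes.

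The genes whose log2 CPM followed *Itgb5* most closely by Pearson's r were *Rnase4* (0.961), *Rgs10* (0.961) and *Rabac1* (0.953) over the 14 sorted libraries and *Rab37* (0.956), *Msantd3* (0.95) and *Csnk1g2* (0.947) over the 12 libraries by stage and genotype. For *Parvb* they were *Man2a1* (0.907), *Ssbp3* (0.901) and *Xrn1* (0.901) over the 14, and *Gm30890* (0.951), *Gm40946* (0.949) and *Haus8* (0.946) over the 12. No partner was among the first 3 in both tables. The points of each r share libraries, depth and group differences, and the values are a description.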

How the data were processed

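RNA-seq libraries of sorted microglia (SMART-seq mRNA HT LP kit, full-length, not strand-specific as far as the sources used here state) and of cord (NEBNext Ultra II Directional kit) were trimmed by the authors with Trim Galore 0.6.7, quantified with Salmon 1.9.0 on GRCm39 and imported with tximport in R 4.2.1. The authors deposited estimated counts per Ensembl gene, not normalized, with an annotation release not given in the sources used here. Estimated counts were rounded and named by GENCODE vM39; unnamed identifiers held 0.0145% to 0.0514% of the counts. Overlapping genes, such as *Gm62737* on *Parvg*, may share reads in the microglia libraries.

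Each table was fitted on its own, with all of its groups, in edgeR 4.0.16 (R 4.3.3; filterByExpr with minimum count 10 and minimum total 15, TMM, robust quasi-likelihood test), and p-values were adjusted by Benjamini-Hochberg across every gene of the table that passed the filter. CPM use TMM-scaled totals. Levels were set side by side across tables without a test. The fit was tested on simulated data. Alternatives were DESeq2 1.42.0, RLE size factors, totals without TMM, no filter, listed sex, a replicate block, only the 2 groups compared, a length and GC offset and each library left out.

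The members and lists were chosen with earlier results of these data known. Named were all 10 genes, *Lag3*, the called pathway genes with the 3 smallest adjusted p in each comparison and the 3 closest correlates of *Itgb5* and *Parvb*. Libraries were grouped by their titles.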

Additional observations from a re-analysis of the deposited data

Results flagged for a closer look

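In 30 groups of 4 or 5 libraries tested for a library far from the rest of its group, of which chance flags about 1 in 20, 3 stood out. *Parvb* was at 598.2 CPM in WT replicate 3, against 0.254 to 7.70 CPM in the other WT libraries. *Itga4* was at 12.64 CPM in WT replicate 2, against 0.204 to 1.98 CPM. *Itgb5* was at 310.5 CPM in LAG-3-high replicate 3, against 180 to 217 CPM in the other 4. The *Itgb5* difference between genotypes changed from P120 to P140 by 3.777 on the log2 scale, the size of the interaction in edgeR that picked it out; it is a description, since the gene was chosen with these data in view. With each library left out it was between 3.08 and 4.06.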

How the results depend on the processing

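The log2 fold changes of 46 member comparisons were followed. Over the settings that left no library out, 309 values kept their direction and their side of the threshold, 18 newly passed it, 19 no longer did and 9 reversed; with each library left out in turn the numbers were 314, 13, 26 and 13. The cause of these changes was not tested. Counts as low as 2 for *Itga4* and 0 for *Itga9* in some libraries make these values imprecise.

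Members called are followed here by the share of all genes called in the same fit. In LAG-3-low against WT (1, 21.9%) they were 2 with DESeq2 (28.5%), listed sex (20%), the replicate block (13.7%) or RLE size factors (22.1%). With the length and GC correction they were 3 (30.4%). In LAG-3-high against WT (3, 27%) they were 1 with only the 2 groups compared (18.5%). For genotype at P120 (0, 0.0107%) they were 2 with DESeq2 (0.718%). They were 1 there without a filter (0.0181%) or with only the 2 groups (0.18%). For genotype at P140 (5, 10.2%) they were 1 with the length and GC correction (8.45%). With only the 2 groups they were 0 (0%), and with the replicate block 3 (4.36%). For the interaction (1, 0.171%) they were 5 with DESeq2 (6.97%). They were 0 there with the length and GC correction (0.0482%), listed sex (0%), the replicate block (0%) or RLE size factors (0.075%). In cord (1, 7.52%) they were 0 with the length and GC correction (5%). For pathway genes called, the same share is given. In LAG-3-high against LAG-3-low (5, 3.49%) they were 8 with DESeq2 (5.98%) and 10 with only the 2 groups (9.9%). With the replicate block they were 2 (2.37%). In LAG-3-low against WT (20, 21.9%) they were 10 with only the 2 groups (11.1%). For genotype at P140 (18, 10.2%) they were 30 with DESeq2 (22.9%) and 9 with the length and GC correction (8.45%). They were 9 there with the replicate block (4.36%) and 0 with only the 2 groups (0%). For the interaction (0, 0.171%) they were 13 with DESeq2 (6.97%) and 2 without a filter (0.463%).

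Reversed values were *Parvb* in LAG-3-low and LAG-3-high against WT with the replicate block (1.722 and 1.116) or without WT replicate 3 (3.678 and 3.098), *Parvg* there with the length and GC correction (-0.001 and -0.159), *Parvb* from P120 to P140 without TMM (-0.377 in LAG-3+/+, -0.116 in LAG-3-/-), with listed sex (-0.084) or the length and GC correction (0) in LAG-3-/-, and its interaction without TMM (0.261). With each library left out, *Parvb* ranged from -0.362 to 0.40 from P120 to P140 in LAG-3+/+, from -0.428 to 1.51 in LAG-3-/- and from -0.609 to 1.397 in the interaction, from -1.827 to 3.678 in LAG-3-low and from -2.618 to 3.098 in LAG-3-high against WT, and *Itgb5* from -0.061 to 0.869 between genotypes at P140.

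With each library left out, members called are given with the range of the share of all genes called. They were 0 to 1 (2.29% to 3.32%) for LAG-3-high against LAG-3-low. Against WT they were 1 to 4 (17.5% to 33.2%) for LAG-3-low and 3 to 4 (22.1% to 35%) for LAG-3-high. From P120 to P140 in LAG-3+/+ they were 5 to 7 (16% to 25.6%). For genotype they were 0 to 1 (0.00492% to 0.0148%) at P120 and 1 to 5 (0.47% to 20.2%) at P140. They were 0 to 5 (0% to 8.35%) for the interaction and 0 to 1 (6.63% to 9.89%) in cord. Beside the same shares, pathway genes called were 2 to 5 for LAG-3-high against LAG-3-low, 0 to 28 for genotype at P140 and 0 to 21 for the interaction. Deviations of same-numbered libraries from their groups had correlations of -0.119 to 0.0674 over all pairs. For LAG-3-high and LAG-3-low they averaged 0.0323, against -0.00808 for other pairs. The labels do not say whether same numbers share a mouse, and values this small cannot decide it.

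Library totals without TMM moved the median log2 fold change of all genes by -0.38 in LAG-3-high against LAG-3-low, -0.31 in LAG-3-high against WT, -0.48 and -0.26 from P120 to P140 in LAG-3+/+ and LAG-3-/-, 0.33 between genotypes at P140, 0.23 in the interaction and -0.13 in cord; RLE size factors moved it by 0.11 from P120 to P140 in LAG-3+/+ and by -0.11 in the interaction. Of all called genes, 43.4% were higher from P120 to P140 in LAG-3+/+, against 19.1% without TMM and 68.2% with the length and GC correction, and 70.6% were higher in LAG-3-/- at P140, against 89.4%, 37.9% and, with RLE size factors, 60.4%.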
